A study of Mus musculus with 51 samples.

Results

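Gonads of 28-day-old (P28) mice carrying 1 copy of the Dmrt1 R111G allele were compared with P28 wild-type testes. The comparison used 6 of the 30 RNA-seq libraries of the series, which holds 51 samples in all: 3 libraries labelled Dmrt1 R111G/+ and 3 labelled Dmrt1 +/+. Of 55401 genes in the deposited count table, 20952 passed a filter on low counts and were tested. R111G/+ gonads had far less RNA of genes used in late meiosis and in spermatids and a larger share of RNA from genes of somatic cells. The female transcription factor gene Foxl2 stayed near 0 in them, whereas the estrogen receptor gene Esr2 and the progesterone receptor gene Pgr were higher than in wild-type testes.

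All animals were on a mixed 129Sv and C57Bl/6J background and both groups were dissected as whole gonads at P28; the study describes the animals as XY. The groups differed in Dmrt1: R111G/+ animals had 1 allele that changes an arginine of the DM domain to glycine and 1 wild-type allele, and +/+ animals had no engineered allele. The R111G line was made by CRISPR editing and goes back to 1 correctly edited animal. P28 Dmrt1 +/- testes (1 null allele, n = 3 libraries) and P28 Dmrt1 -/- gonads (2 null alleles, n = 3) were in the same statistical fit and are given beside the comparison. By the rule for calls given below, R111G/+ gonads were higher than null gonads in 27.6% of genes and lower in 10.1%, and higher than heterozygous testes in 6.72% and lower in 28.1%. The labels do not say whether the libraries of a group came from separate animals, so p-values measure the spread between these libraries, which may be technical.

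DMRT1 is a transcription factor with a DM domain, a zinc-binding domain that contacts DNA. In the testis it is made by Sertoli cells, the somatic cells that nurse the germ cells, and by spermatogonia. Loss of DMRT1 from mouse Sertoli cells is known to let them take on features of granulosa cells, the supporting cells of the ovary, and in spermatogonia DMRT1 is known to restrain entry into meiosis.

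The codon that the allele alters is shown to place the change in the gene. The allele carries the number of the human residue. In the mouse annotation (GENCODE M21) the arginine codon that the repair template of the study changes is residue 109 of 374, in coding exon 1 on chromosome 19, at positions 25506178 to 25506180 of GRCm38, plus strand. The reference sequence of chr19:25506142-25506201 follows, with that codon in capitals; it is the unedited sequence.
Dmrt1 edited codon: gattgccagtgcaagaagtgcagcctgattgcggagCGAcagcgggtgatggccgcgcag

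R111G/+ libraries held 9834985, 12792811 and 11495367 counts assigned to genes, and wild-type libraries held 10891612, 9387891 and 8921859. Levels are given as CPM (counts relative to library size) and adjusted by the trimmed mean of M-values (TMM), which assumes that most genes do not differ. A gene was called higher or lower where edgeR's quasi-likelihood test gave a Benjamini-Hochberg adjusted p below 0.05 and the fold change was over 2. By that rule 3792 genes were called higher in R111G/+ gonads, which is 18.1% of genes tested, and 7149 were called lower, which is 34.1%. Together these are 52.2% of genes tested. Counts of called list members given below are to be read beside these shares. Without regard to the test, all R111G/+ libraries lay above all wild-type libraries for 30.8% of genes and below them for 43.6%. The changes toward lower levels were the larger ones. Of the genes called lower, 1125 fell by more than 4 on the log2 scale, against 32 genes called higher that exceeded 4.

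The split between higher and lower calls depends on the scaling. With TMM the median log2 fold change over all genes tested was −0.19. With scaling by library size alone the median was 0.25 and 29.5% of genes were called higher, which made up 51.1% of calls in place of 34.7%. When libraries were scaled to equal sums of 4 lists of macrophage, endothelial, myoid and stromal genes, the median was −1.41, 58% of genes were called lower and 1.22% higher, and 2.06% of calls were higher. This scaling on somatic lists sets levels against the pooled sum of the 4 lists, so that sum is level by construction. The list medians with it were 0.61 (macrophage), 0.19 (stromal), −0.40 (myoid) and −0.68 (endothelial). In bulk tissue, fewer cells of a type and less RNA per cell cannot be told apart, and neither can more somatic cells and fewer germ cells.

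Each library was placed on the line that runs from the mean wild-type profile, set to 0, to the mean null profile, set to 1. R111G/+ gonads stood at 0.610, 0.463 and 0.433, with a mean of 0.502 ± 0.0945 (SD, n = 3), and wild-type testes at 0.0180, −0.00615 and −0.0119. All 3 R111G/+ libraries were thus about midway. The line takes in many genes hardly read in null gonads. Of the genes called lower, 63.2% were under 1 CPM in all null libraries, against 3.32% of those called higher. Midway on the line is therefore not midway for each gene. Foxl2 averaged 0.264 CPM in R111G/+ gonads, 0.385 CPM in wild-type testes and 155 CPM in null gonads. Heterozygous testes averaged 0.114 ± 0.0912 and null gonads 1.00 ± 0.000934. Heterozygous replicate 3 stood at 0.218, nearer to R111G/+ gonads than replicates 1 and 2 at 0.048 and 0.075. Its genes of elongating spermatids summed to 6028 CPM, against 20090 and 25040 CPM in those replicates. Heterozygous means given below include it. An exact permutation test (two-sided) of R111G/+ against wild-type positions gave p = 0.1, the smallest value that 3 against 3 allows. The line was drawn from the same wild-type libraries, so this p only describes the positions and is no independent test of a difference. The first principal component took 86.8% of the variance and ran along this line. On the second, with 6.55%, R111G/+ libraries lay between −81.4 and −78.5, whereas wild-type libraries lay between 30.7 and 38.3 and null libraries between 40.7 and 42.2. On that component the R111G/+ libraries did not overlap any other genotype.

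**Figure D1:**
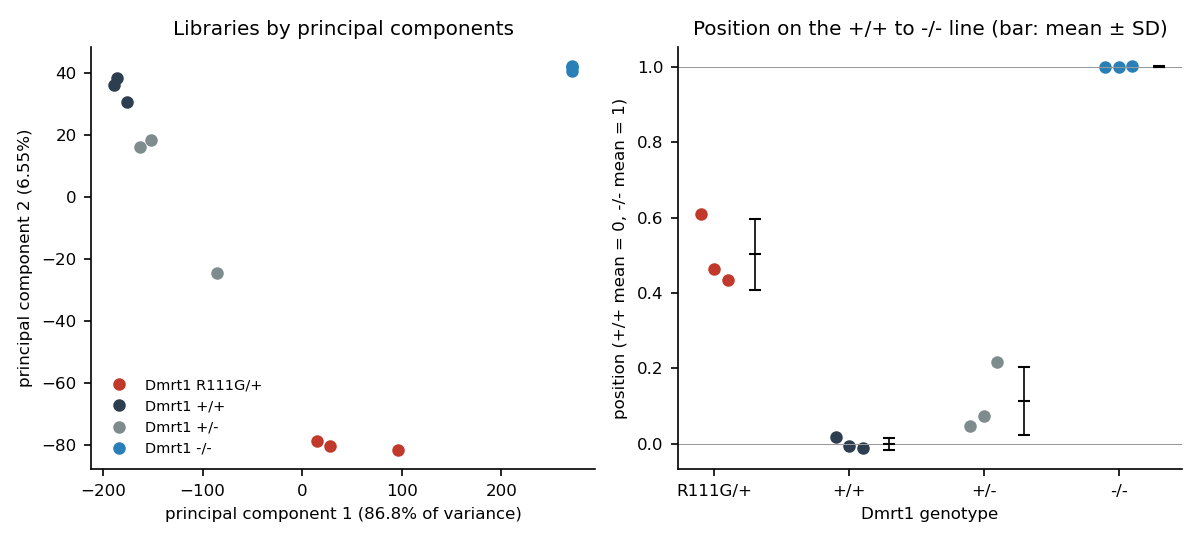
Left, the 12 P28 libraries on the first 2 principal components of log2 CPM. Right, the position of each library (points) on the line from the wild-type mean (0) to the null mean (1), with mean ± SD (n = 3 a genotype); the R111G/+ libraries sit between 0.433 and 0.610, between the other genotypes, and apart from all of them on the second component.

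R111G/+ replicate 1 stood apart from replicates 2 and 3. The 4 somatic lists took 8586 CPM, here without TMM adjustment, in it, against 4967 and 4730 in the others, and in wild-type testes 2335, 1566 and 1571. It also had fewer genes with at least 10 counts, 16947 against 18872 and 18724. The targeted gene itself was read in every library. Dmrt1 had 44.7, 69.6 and 67.7 CPM in R111G/+ gonads and 34.3, 43.4 and 37.0 CPM in wild-type testes. The groups did not overlap, but the log2 difference of 0.67 (SE 0.26, edgeR adjusted p = 0.033) was under 2-fold, so the gene was not called; without R111G/+ replicate 1 it was, at 1.04. The count table does not separate the R111G allele from the wild-type one.

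From early meiotic prophase on, the fall in germ cell genes was larger the later the stage of the list. Summed over 20 genes of elongating spermatids, levels were 756, 1051 and 1164 CPM in R111G/+ gonads and 25170, 21950 and 22150 CPM in wild-type testes. Summed over 22 genes of round spermatids, they were 268, 532.5 and 722 CPM in R111G/+ gonads and 5498, 6339 and 5358 CPM in wild-type testes. For 20 genes of pachytene and later spermatocytes, the sums were 1353, 2391 and 3020 CPM in R111G/+ gonads and 10800, 12250 and 11090 CPM in wild-type testes. In all 3 lists every R111G/+ library lay below every wild-type library, and replicate 1 was the lowest.

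The lists of earlier stages differed less. Early meiotic prophase genes summed to 1551 ± 198 CPM in R111G/+ gonads and 3261 ± 81.0 CPM in wild-type testes (SD, n = 3 each). Genes of differentiating spermatogonia summed to 439 ± 39.1 CPM in R111G/+ gonads and 757 ± 78.1 CPM in wild-type testes (SD, n = 3 each), a sum that 1 gene, Dmrtb1, dominated in wild-type testes. The list median went the other way (log2 0.54). In null gonads this list summed to 776, 651 and 553 CPM, whereas elongating spermatid genes summed to 40.2, 38.9 and 34.1 CPM there. The sum of this list thus did not follow the later germ cell lists. For undifferentiated spermatogonia, the sums were 97.2, 129 and 110.7 CPM in R111G/+ gonads and 124, 144.5 and 126 CPM in wild-type testes, and the groups overlapped.

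**Figure D2:**
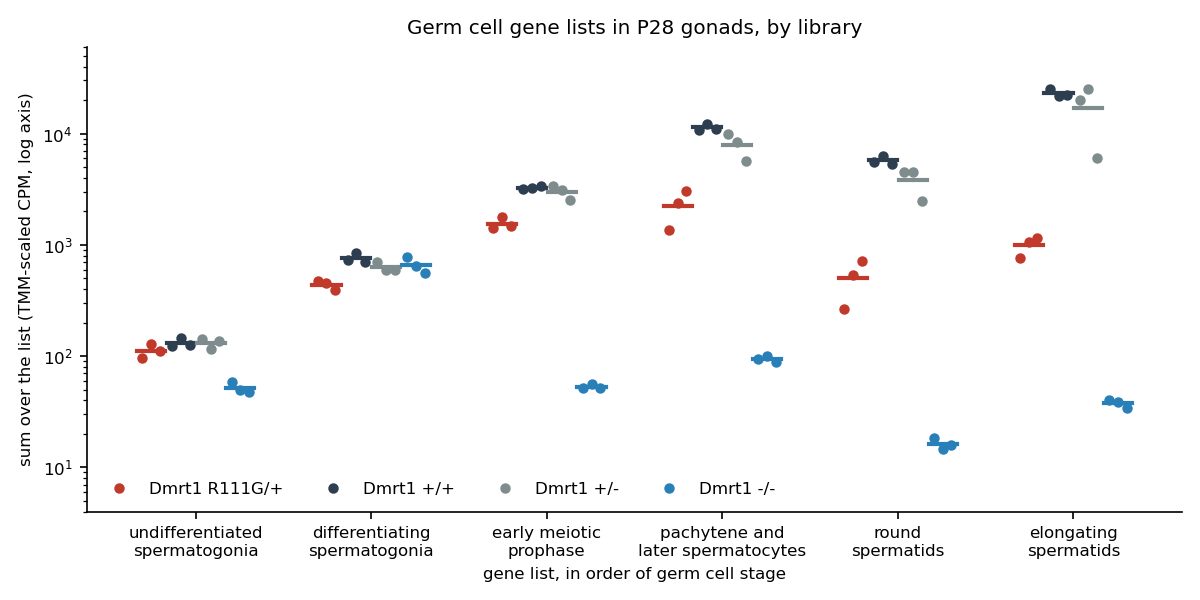
Summed levels (TMM-scaled CPM, log axis) of 6 lists of germ cell genes, in order of germ cell stage, in each P28 library (points) with the mean of each genotype (line, n = 3). R111G/+ libraries overlap wild-type libraries for undifferentiated spermatogonia and lie below them from differentiating spermatogonia on, by most for elongating spermatids. The sum for differentiating spermatogonia is dominated by Dmrtb1 in wild-type testes, and null libraries lie at 553 to 776 CPM on it.

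Genes that pack sperm DNA carried the largest sums. Prm1, a protamine that replaces histones in sperm chromatin, had 105, 98.3 and 91.7 CPM in R111G/+ gonads and 4215, 3199 and 2828 CPM in wild-type testes, a log2 difference of −5.12 (SE 0.57, edgeR adjusted p = 1.08e-05). The transition protein gene Tnp1, used just before the protamines, had 75.5, 84.0 and 54.9 CPM in R111G/+ gonads and 3458, 2105 and 2582 CPM in wild-type testes. All 20 genes of elongating spermatids were called lower, with log2 differences of −5.25 to −2.38 and a median of −4.43. The range included Smcp, a protein of the sperm mitochondrial capsule (−4.69), Gapdhs, the glycolytic enzyme of sperm (−4.67), Akap3, an anchor protein of the sperm tail (−4.25), and Gsg1, a germ cell membrane protein (−4.35). All 20 were lower still in null gonads, where Prm1 averaged 5.89 CPM.

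All 22 genes of round spermatids were called lower, with a median of −3.65. Spem1, needed for shaping the sperm head, had 9.17, 12.6 and 11.5 CPM in R111G/+ gonads and 457, 424.5 and 405 CPM in wild-type testes. The testis-specific serine kinases Tssk6, Tssk2 and Tssk1 differed by −5.19, −4.40 and −3.92 on the log2 scale. Zpbp and Acr, proteins of the acrosome, the vesicle with which sperm penetrate the egg coat, differed by −2.26 and −3.28. Every member was below its wild-type range.

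Among 20 genes of pachytene and later spermatocytes, 19 were called lower, with a list median of −2.35 that was −1.88 without R111G/+ replicate 1. Pgk2, the glycolytic enzyme of meiotic cells, had 60.9, 128 and 141 CPM in R111G/+ gonads and 1706, 1472 and 1406 CPM in wild-type testes (log2 −3.80, SE 0.38, edgeR adjusted p = 6.71e-06). Ybx2, an RNA-binding protein that stores germ cell messages, differed by −2.62, Adam3, a sperm surface protein, by −3.23, and Tbpl1, a germ cell transcription factor, by −1.81. The exception was Nxf3, an X-linked RNA export factor, and which cells of the gonad it was read in was not tested. It had 195, 316 and 355 CPM in R111G/+ gonads and 142, 120 and 178.5 CPM in wild-type testes (log2 0.97). It was short of a 2-fold change, and under scaling on the somatic lists the difference was −0.18, not called. Without R111G/+ replicate 1 the difference was 1.39 and the gene was called higher, as it was without wild-type replicate 3 (1.13).

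Early meiotic prophase genes divided. Of 27 tested, 10 were called lower, none was called higher, and 17 were not called, beside 34.1% of all genes called lower; the median was −0.79. With scaling by library size alone 3 were called lower and 1 higher, and with scaling on the somatic lists 21 were called lower (median −2.03). Syce1, a component of the synaptonemal complex that holds paired chromosomes together, had 56.5, 98.2 and 106 CPM in R111G/+ gonads and 395, 359 and 383 CPM in wild-type testes. Stag3 and Smc1b, subunits of meiotic cohesin, differed by −1.58 and −1.27, and Meioc, a regulator of meiotic entry, by −1.22. The structural proteins Sycp1 (−0.79) and Sycp3 (−0.32) were not called. Nor was the recombinase gene Dmc1, with 22.3, 22.6 and 19.5 CPM in R111G/+ gonads and 15.6, 15.8 and 21.4 CPM in wild-type testes. Without R111G/+ replicate 1, 6 of these genes were called lower in place of 10, and Smc1b (−0.98) and Meioc (−0.95) were among those lost.

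Genes of the piRNA pathway, which silences transposons in germ cells, were mostly lower. Of 18 tested, 15 were called lower and none higher, with a median of −1.41, and 9 were called lower without R111G/+ replicate 1 (median −1.02) or with scaling by library size alone (median −0.95). Mael, a germ granule protein, had 84.8, 135.5 and 162 CPM in R111G/+ gonads and 602, 658 and 618 CPM in wild-type testes. Gtsf1, a PIWI cofactor, differed by −2.79, Ddx25, a germ cell RNA helicase, by −2.51 and Tdrd7, a Tudor protein, by −1.99. Piwil2 and Dazl, both already used in spermatogonia, were not called, and Dazl, an RNA-binding protein, had 407, 412 and 366 CPM in R111G/+ gonads and 434, 348 and 400 CPM in wild-type testes.

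Of 7 oocyte genes with enough counts, 4 were called lower and 1 higher; Gdf9, an oocyte growth factor that the mouse testis also transcribes, had 2.25, 2.47 and 4.19 CPM in R111G/+ gonads and 11.5, 13.2 and 11.7 CPM in wild-type testes.

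The lists of spermatogonia held, with TMM, no larger share of lower calls than the 34.1% over all genes, where 18.1% were called higher. In 13 genes of undifferentiated spermatogonia, 2 were called higher and 3 lower, and the median was 0.42 with TMM and −0.79 with scaling on the somatic lists. The number called higher was 4 without R111G/+ replicate 1, 0 without R111G/+ replicate 2 and 1 without wild-type replicate 2. The 3 lower genes were Pou5f1, a pluripotency factor, Lhx1, a homeobox factor, and Id4, an inhibitor of differentiation. Id4 had 22.3, 32.3 and 32.6 CPM in R111G/+ gonads and 57.7, 80.6 and 66.2 CPM in wild-type testes, and was not called without R111G/+ replicate 1 (−0.88). Pou5f1 had 0.180, 0.535 and 0.514 CPM in R111G/+ gonads and 6.09, 5.02 and 7.73 CPM in wild-type testes. Zbtb16, a repressor that maintains spermatogonial stem cells, was not called (log2 0.93) but was called higher without R111G/+ replicate 1 (1.03) or 3 (1.04) or wild-type replicate 1 (1.18), and the GDNF receptor gene Gfra1 overlapped between groups.

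In 10 genes of differentiating spermatogonia, 2 were called higher and 2 lower, with a median of 0.54 with TMM and −0.68 with scaling on the somatic lists, so the median and the sum of the list differed in sign with TMM. Kit, the receptor that marks these cells, was at the 2-fold limit (1.00) and was not called without R111G/+ replicate 1 or 2 or wild-type replicate 2 or 3 (0.87 to 1.00). Ccnd2, a cyclin that Sertoli cells and ovarian granulosa cells also make, had 256.5, 212 and 155 CPM in R111G/+ gonads and 72.9, 51.5 and 48.1 CPM in wild-type testes. Dmrtb1, which governs the passage from mitosis to meiosis, had 37.1, 62.1 and 115 CPM in R111G/+ gonads and 508, 627 and 525 CPM in wild-type testes (log2 −2.95, SE 0.34, edgeR adjusted p = 1.24e-05). The meiotic cohesin subunit Rec8 was also lower (−2.08). Stra8, the retinoic acid-induced gatekeeper of meiosis, had 7.91, 13.1 and 7.72 CPM in R111G/+ gonads and 6.41, 5.15 and 9.80 CPM in wild-type testes; the groups overlapped, and the gene was not called.

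**Figure D3:**
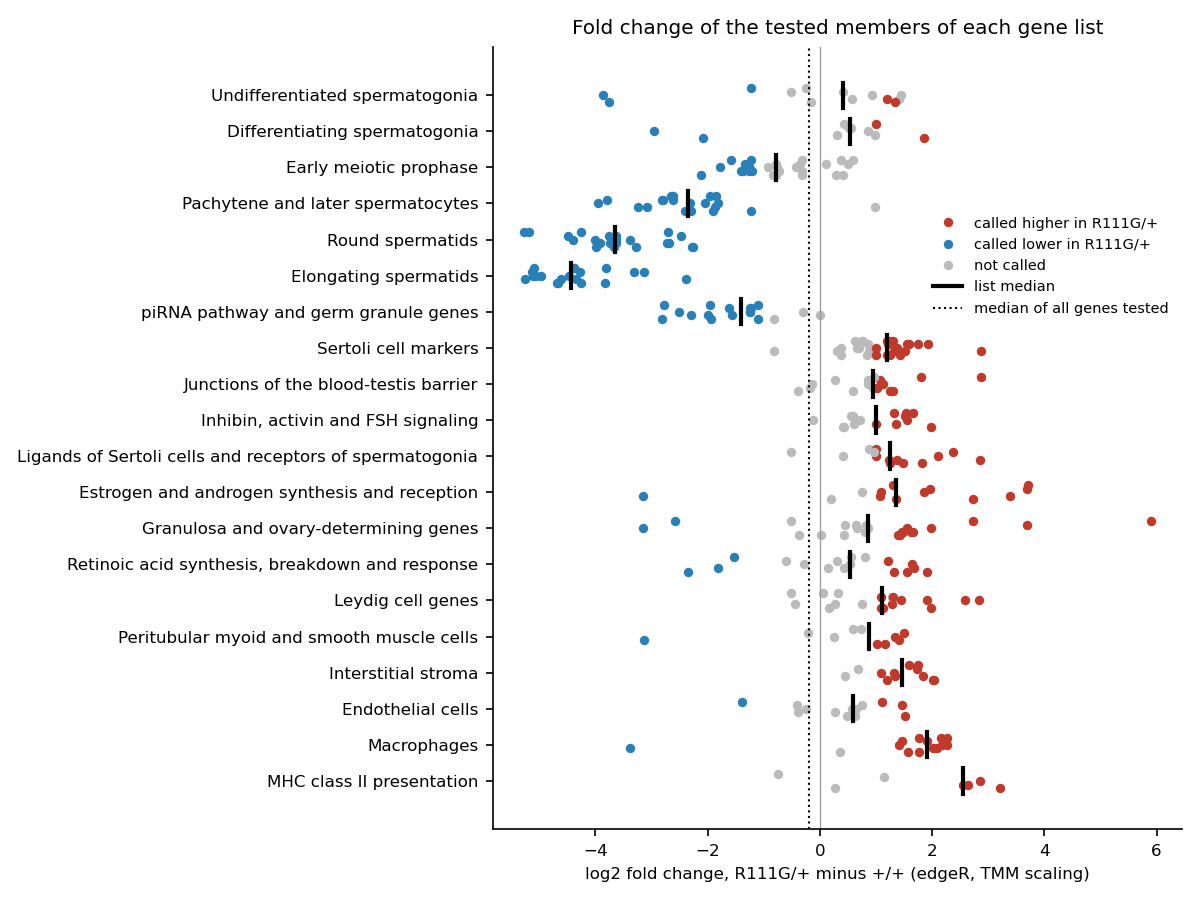
Log2 fold change (R111G/+ minus wild-type, TMM scaling) of each tested member of 20 gene lists (points), with the median of each list (bar) and of all 20952 genes tested (dotted line, −0.19). Medians fall from differentiating spermatogonia (0.54) through early meiotic prophase (−0.79) to elongating spermatids (−4.43), and list medians of somatic cells lie above 0, most of which turn below 0 or near it with scaling on the somatic lists.

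Sertoli cell genes took a larger share of the RNA of R111G/+ gonads. The 30 markers summed to 4340, 4065 and 4397 CPM in R111G/+ gonads and 2111, 1934 and 1874 CPM in wild-type testes, with no overlap. Of the 30, 18 were called higher and none lower, with a median of 1.20. Without R111G/+ replicate 1 there were 24 called higher (median 1.31), and without R111G/+ replicate 3 there were 13 (median 0.94). With scaling on the somatic lists 1 was called higher and 1 lower, and the median was 0.00. The Sertoli list was thus level with the pooled sum of those lists, not with each of them. With TMM its median lay above those of endothelial (0.58) and myoid (0.87) genes and below those of stromal (1.46) and macrophage (1.92) genes. Sox9, the factor that specifies Sertoli cells, had 54.4, 83.3 and 107 CPM in R111G/+ gonads and 30.6, 41.8 and 34.3 CPM in wild-type testes (log2 1.20, SE 0.28, edgeR adjusted p = 0.00181). Without R111G/+ replicate 3 its log2 difference was 0.96 and it was not called.

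Members of the Sertoli list spread widely. Trf, transferrin, which carries iron to germ cells, had 80.7, 52.0 and 52.3 CPM in R111G/+ gonads and 10.2, 6.43 and 8.38 CPM in wild-type testes, a 7.34-fold difference that also held under scaling on the somatic lists (log2 1.61). Its level was higher than in null gonads (mean 16.3 CPM) and heterozygous testes (20.4 CPM) as well, both called. Shbg, a carrier of sex steroids, differed by 1.75, and Gata4, a factor of gonadal somatic cells, by 1.51. Cst9 and Cst12, cystatin genes of Sertoli cells, were not called. Cst9 had 148, 183 and 124.5 CPM in R111G/+ gonads and 135, 111.2 and 122 CPM in wild-type testes, and null gonads averaged 21.0 CPM.

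Genes of granulosa cells and ovary determination did not move together. Of 23 tested, 11 were called higher and 2 lower, with a median of 0.86 that turned to −0.35 with scaling on the somatic lists. Some of the 11 are also read in normal Sertoli cells, so the list does not separate these cell types. In control Sertoli cells at P7, without TMM adjustment, Inha averaged 1160, Kitl 779, Kctd14 756 and Hsd17b1 130 CPM. Fst averaged 7.86, Inhba 4.43, Runx1 1.42, Rspo1 1.41 and Bmp2 0.892 CPM there, and Esr2 and Pgr are given below. Without R111G/+ replicate 1 there were 13 called higher and the median was 1.17. Foxl2, the factor that maintains granulosa cell identity, had 0.0899, 0.334 and 0.367 CPM in R111G/+ gonads and 0.641, 0.257 and 0.258 CPM in wild-type testes, which is 11 and 10 counts in all. In null gonads it averaged 155 CPM. Nr5a2, another factor of granulosa cells, had 1.44, 3.34 and 2.28 CPM in R111G/+ gonads and 1.82, 1.42 and 1.29 CPM in wild-type testes, against 184.5 CPM in null gonads, and it was not called against wild-type testes unless R111G/+ replicate 1 was left out (1.08). Wnt4, a signal of ovary development, was not called either, and Rspo1, which acts with it, was called higher at 2.70, 1.20 and 1.62 CPM in R111G/+ gonads and 0.534, 0.386 and 1.16 CPM in wild-type testes. Rspo1 was not called without wild-type replicate 1 (1.23) or wild-type replicate 2 (1.12).

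The granulosa genes called higher included 2 hormone receptors. Esr2, estrogen receptor beta, had 1.98, 3.67 and 4.04 CPM in R111G/+ gonads and 0.107, 0.515 and 0.129 CPM in wild-type testes (log2 3.68, SE 0.60, edgeR adjusted p = 0.000139). Null gonads had 16.7 CPM and heterozygous testes 0.234 CPM, so R111G/+ gonads lay between wild-type testes and null gonads, and each of those differences was called. Pgr, the progesterone receptor, had 5.39, 12.2 and 12.6 CPM in R111G/+ gonads and 0.427, 0 and 0 CPM in wild-type testes, which is 415 counts against 4. No other gene that averaged 5 CPM or more across the 6 libraries, with groups apart, rose as much (log2 5.89, SE 0.77, edgeR adjusted p = 2.98e-05). Its mean of 17.7 CPM in null gonads was not called different from R111G/+ gonads. Both receptor genes were also read in younger male gonads without the R111G allele, here without TMM adjustment. In Dmrt1 +/- gonads at P3, Esr2 averaged 9.5 CPM and Pgr 12.25 CPM. In control Sertoli cells at P7, Esr2 averaged 8.2 CPM and Pgr 0.056 CPM.

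**Figure D4:**
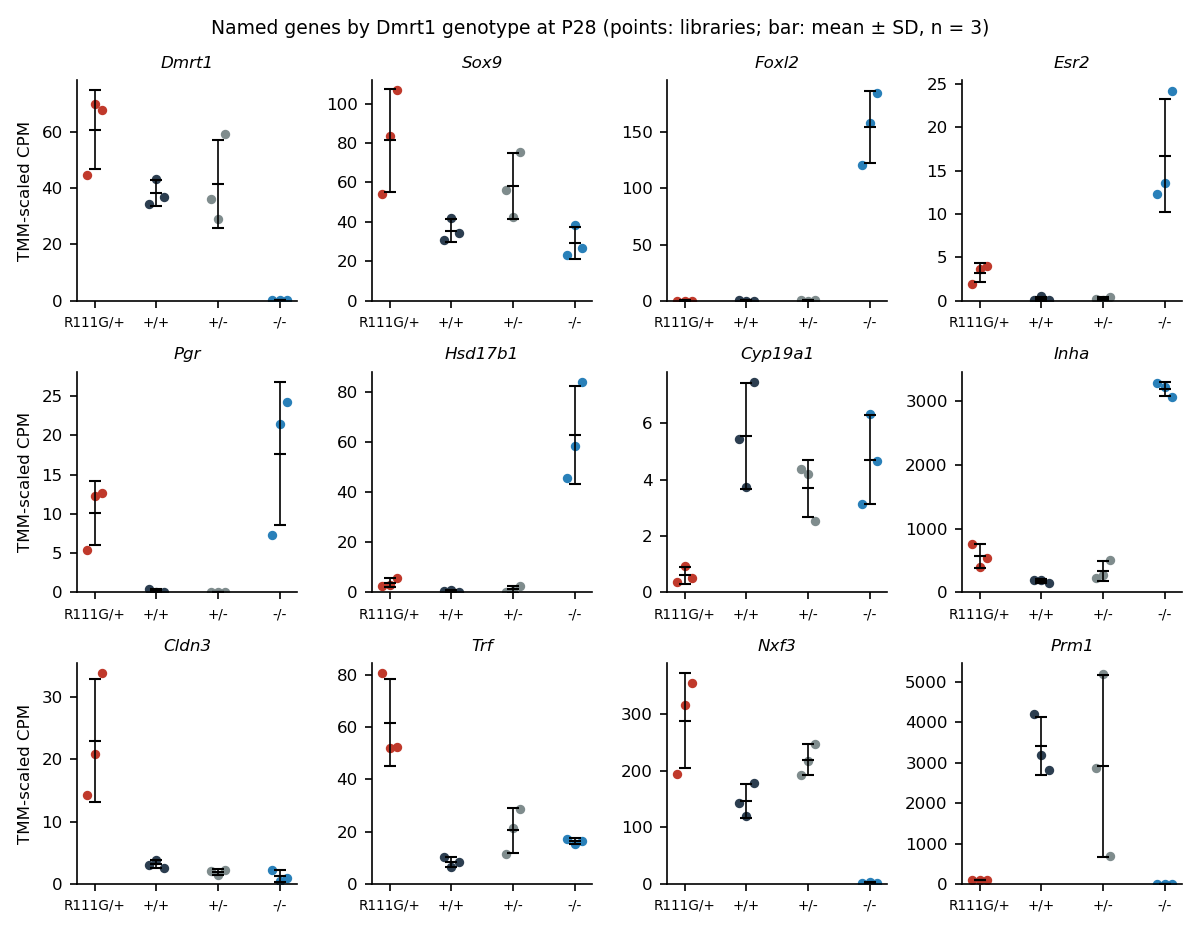
Levels (TMM-scaled CPM, linear axes from 0) of 12 named genes in the P28 libraries of each Dmrt1 genotype (points) with mean ± SD (n = 3). Foxl2 is near 0 in R111G/+ and wild-type libraries and averages 155 CPM in null gonads, Esr2 and Pgr are higher in R111G/+ than in wild-type libraries, and Cldn3 and Trf are highest in R111G/+ gonads.

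Enzymes and receptors of sex steroids were mostly higher, with 10 of 13 called higher and 1 lower, a median of 1.36 with TMM and 0.14 with scaling on the somatic lists. The lower gene was Cyp19a1, the aromatase that makes estrogen, with 0.360, 0.936 and 0.514 CPM in R111G/+ gonads and 5.45, 3.73 and 7.48 CPM in wild-type testes (log2 −3.14, SE 0.45, edgeR adjusted p = 5.54e-05). Cyp19a1 was also called lower than in null gonads (4.71 CPM) and heterozygous testes (3.70 CPM). Hsd17b1, which makes the strong estrogen estradiol, went the other way, with 2.43, 3.14 and 5.80 CPM in R111G/+ gonads and 0.534, 1.03 and 0.129 CPM in wild-type testes. Gper1, a membrane estrogen receptor, had 3.33, 5.35 and 5.88 CPM in R111G/+ gonads and 0.320, 0.515 and 0.258 CPM in wild-type testes. Hsd17b7, another enzyme of this family, rose by 1.97. Hsd17b3, which makes testosterone, overlapped between the groups (log2 1.08, SE 0.44) and was not called without R111G/+ replicate 2, wild-type replicate 2 or wild-type replicate 3 (0.79 to 1.09).

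Inhibin and activin subunits, made by Sertoli and granulosa cells, differed in degree. Inha, the inhibin alpha subunit, had 766, 395 and 541 CPM in R111G/+ gonads and 194, 201 and 141 CPM in wild-type testes, and Inhba, an activin subunit, had 32.0, 23.1 and 15.1 CPM in R111G/+ gonads and 7.80, 4.76 and 5.03 CPM in wild-type testes. Both were lower than in null gonads, at 3197 and 216.5 CPM. Inhbb was not called (log2 0.61). In the list of inhibin, activin and FSH signaling, 8 of 15 were called higher and none lower, and the median of 1.00 turned to −0.18 with scaling on the somatic lists. Without R111G/+ replicate 1 the median was 1.30, and without R111G/+ replicate 3 it was 0.84 with 6 called higher. Smad3, which carries activin signals, rose by 1.52, Tgfbr3, a coreceptor of inhibin, by 1.54 and the receptor gene Acvr1c by 1.35.

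Proteins that seal the blood-testis barrier also differed in degree, with 7 of 18 tested genes called higher and none lower. The list median of 0.95 turned to −0.26 with scaling on the somatic lists, and without R111G/+ replicate 1 the number called higher was 13, against 4 without wild-type replicate 2. Cldn3, a tight junction claudin, had 14.3, 20.9 and 33.8 CPM in R111G/+ gonads and 2.99, 3.86 and 2.58 CPM in wild-type testes (log2 2.87, SE 0.43, edgeR adjusted p = 7.48e-05). It was also called higher than in null gonads (1.25 CPM) and heterozygous testes (1.92 CPM). Ocln, occludin, had 20.0, 25.9 and 31.0 CPM in R111G/+ gonads and 9.82, 9.01 and 13.5 CPM in wild-type testes. F11r and Gja1, a junctional adhesion molecule and a gap junction connexin, rose by 1.81 and 1.30. The scaffold gene Tjp1 overlapped between groups.

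Signals between somatic and germ cells were higher for 10 of 14 genes of the niche list and lower for none, with a median of 1.24 that turned to −0.06 with scaling on the somatic lists. Kitl, the ligand for the KIT receptor of differentiating spermatogonia, had 329, 277 and 288 CPM in R111G/+ gonads and 123, 95.1 and 101 CPM in wild-type testes. Cxcl12, a chemokine that holds spermatogonial stem cells, had 297, 209 and 176 CPM in R111G/+ gonads and 59.0, 40.4 and 31.4 CPM in wild-type testes. Csf1, a growth factor of macrophages and spermatogonia, rose by 2.10, and Etv5, a Sertoli and stem cell factor, by 1.26. The stem cell factor gene Gdnf was at the 2-fold limit (log2 1.00, SE 0.36) and was not called without R111G/+ replicate 3, wild-type replicate 1 or wild-type replicate 3. In the hedgehog list, 3 of 8 genes were called higher (Smo 1.93, Gli1 1.29 and Ptch1 1.13), and the median of 0.89 turned to −0.32 with scaling on the somatic lists; the ligand gene Dhh of Sertoli cells was not called (0.87) unless R111G/+ replicate 1 was left out (1.24).

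Retinoic acid, made from vitamin A, drives spermatogonia into meiosis. Of 17 tested genes of its metabolism and reception, 6 were called higher and 3 lower, with a median of 0.54 that turned to −0.66 with scaling on the somatic lists. Cyp26b1, which breaks retinoic acid down, had 909, 560 and 463 CPM in R111G/+ gonads and 271, 215 and 174.5 CPM in wild-type testes, whereas null gonads averaged 50.0 CPM. Aldh1a1, an enzyme of synthesis in Sertoli and Leydig cells, had 1919, 1541 and 1060 CPM in R111G/+ gonads and 617, 294 and 285 CPM in wild-type testes. Aldh1a2, the enzyme of synthesis used by germ cells, was the opposite, with 19.9, 28.3 and 34.5 CPM in R111G/+ gonads and 92.7, 107 and 92.7 CPM in wild-type testes. The receptor gene Rxra rose by 1.22.

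The core of the motif that DM domains bind, spelled ACANTGT and equal to its own reverse complement, was searched on both strands in RefSeq promoters of GRCm38.p6, each of 300 bases. It was in 6.21% of the promoters of 14243 tested genes with a promoter in the table, in 5.98% of 2744 genes called higher, in 8.68% of 4517 genes called lower and in 4.71% of 6982 genes not called. Of the 264 described genes with a promoter, 17 held it, which is 6.44%. The promoter of Cyp26b1, which rose, and 1 of the 3 listed promoters of Cyp19a1, which fell, are shown as members that hold it. They lie at chr6:84593761-84594060 and chr9:54193694-54193993, both on the minus strand, and the capitals mark the core. A match is a description of the letters only.
Cyp26b1: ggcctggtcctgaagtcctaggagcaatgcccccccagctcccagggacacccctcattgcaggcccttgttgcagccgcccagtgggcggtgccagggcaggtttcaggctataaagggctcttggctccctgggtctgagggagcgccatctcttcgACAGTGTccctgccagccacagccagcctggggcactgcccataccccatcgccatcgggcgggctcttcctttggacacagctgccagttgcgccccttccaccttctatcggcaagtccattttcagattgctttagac
Cyp19a1: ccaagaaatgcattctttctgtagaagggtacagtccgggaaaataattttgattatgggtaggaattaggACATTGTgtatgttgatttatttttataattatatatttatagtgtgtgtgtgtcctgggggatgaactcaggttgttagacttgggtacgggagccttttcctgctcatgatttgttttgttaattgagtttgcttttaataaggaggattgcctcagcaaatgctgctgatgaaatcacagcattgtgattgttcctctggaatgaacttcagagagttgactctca

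Leydig cells, the androgen-making cells between the tubules, were followed with 18 genes. Of these, 10 were called higher and none lower, and the median of 1.10 turned to −0.14 with scaling on the somatic lists. All R111G/+ libraries lay above all wild-type libraries for 6 of the 18, beside 30.8% of all genes tested. Cyp11a1, Hsd3b1, Fdx1 and Hsd17b3 were called although the groups overlapped. The list summed to 9007, 4674 and 4494 CPM in R111G/+ gonads and 3332, 1839 and 1408 CPM in wild-type testes. Without wild-type replicate 2 or wild-type replicate 3 the number called was 6, and without R111G/+ replicate 1 it was 7. Hsd3b6, the steroid dehydrogenase of adult Leydig cells, had 2156, 1199 and 1051 CPM in R111G/+ gonads and 334, 138 and 145 CPM in wild-type testes (log2 2.84, SE 0.43, edgeR adjusted p = 8.35e-05). Null gonads averaged 229 CPM and heterozygous testes 383 CPM, both called lower than R111G/+ gonads. Lhcgr, the receptor for luteinizing hormone, rose by 2.59, Star, which brings cholesterol into mitochondria, by 1.98 and Por, the electron donor of steroid enzymes, by 1.30. Cyp17a1, needed for androgen synthesis, had 1153, 660 and 408 CPM in R111G/+ gonads and 873, 562 and 398.5 CPM in wild-type testes and was not called.

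Of 15 macrophage genes, 13 were called higher and 1 lower, with a median of 1.92. With scaling on the somatic lists, which include this list, 1 was called higher and 1 lower and the median was 0.61. Their sum was 2508, 1089 and 1166 CPM in R111G/+ gonads and 848, 607 and 584 CPM in wild-type testes, and without R111G/+ replicate 1 and wild-type replicate 1 together the same numbers were called and the median was 1.60. The growth factor receptor gene Csf1r had 278, 112 and 139 CPM in R111G/+ gonads and 49.1, 36.6 and 25.0 CPM in wild-type testes. Cx3cr1 and Cd68, a chemokine receptor and a lysosomal protein, rose by 2.26 and 2.26. The lower gene, Aif1, had 23.5, 24.5 and 25.9 CPM in R111G/+ gonads and 260, 243 and 264 CPM in wild-type testes, and null gonads averaged 10.5 CPM. Heterozygous testes had 199, 275 and 79.6 CPM of it. Every other member averaged more in null gonads than in wild-type testes, such as Csf1r with 121 and 36.9 CPM. Aif1 thus did not follow the rest of the list, and which cells it was read in was not tested.

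Antigen presentation genes of MHC class II had their highest R111G/+ levels in replicate 1. Cd74, the invariant chain, had 95.4, 15.2 and 35.3 CPM in R111G/+ gonads and 5.02, 8.24 and 2.45 CPM in wild-type testes. Of 7 genes, 4 were called higher, H2-Aa, H2-Eb1, Ciita and Cd74, with a median of 2.56. Without R111G/+ replicate 1 the number was 3, Ciita being lost (1.55), and the median 1.51, and without wild-type replicate 1 too it was 1, with 1 called lower and a median of 0.97.

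Other cells of the interstitium and tubule wall gave mixed counts. In the stromal list 10 of 12 were called higher, with a median of 1.46; with scaling on the somatic lists, which include it, none was called and the median was 0.19. Its members include Pdgfra, a growth factor receptor, with 487, 393 and 325 CPM in R111G/+ gonads and 133, 73.6 and 91.8 CPM in wild-type testes. The collagen genes Col1a2, Col3a1 and Col15a1 rose by 1.73, 1.75 and 1.34. In the myoid list 5 of 10 were called higher (Des 1.50, Mylk 1.41 and Smtn 1.34 among them) and 1 lower, with a median of 0.87 that turned to −0.40 with scaling on the somatic lists, and without wild-type replicate 3 the number called higher was 3. The lower gene, the smooth muscle actin Actg2, had 10.3, 7.82 and 8.82 CPM in R111G/+ gonads and 76.9, 80.2 and 79.9 CPM in wild-type testes. In the endothelial list 3 of 14 were called higher (Cdh5, Emcn and Eng) and 1 lower (Sox17), beside 18.1% and 34.1% over all genes. The share called higher was thus near that of all genes. Eng was not called without R111G/+ replicate 1 (1.00) or wild-type replicate 3 (0.98). The endothelial median of 0.58 turned to −0.68 with scaling on the somatic lists. Of 5 erythroid genes, 1 was called higher and 1 lower (Alas2, the heme synthesis enzyme, −2.10). The part of cell composition in the results was not tested.

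Cystatin genes of a cluster on chromosome 2 differed by member. Cst13 had 1.17, 1.67 and 2.06 CPM in R111G/+ gonads and 69.8, 63.2 and 58.9 CPM in wild-type testes. Cstl1 had 0.809, 1.54 and 0.588 CPM in R111G/+ gonads and 45.5, 28.3 and 32.0 CPM in wild-type testes. Both were far below their wild-type range. Cst8, a reproductive cystatin, fell by 2.21 on the log2 scale. Cst3, cystatin C of many cell types, was called higher (1.82), as was Cstdc2 (2.07), which had 65.2, 35.8 and 9.99 CPM in R111G/+ gonads and 14.6, 5.53 and 6.06 CPM in wild-type testes, so that the groups overlapped. Cstdc2 was not called without wild-type replicate 2 (1.83) or wild-type replicate 3 (1.86).

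X-linked genes stood apart from autosomal genes in the share called. During male meiosis the X and Y chromosomes are known to be silenced, so many X-linked genes are little used in spermatocytes. Of 841 X-linked genes tested, 316 (37.6%) were called higher and 218 (25.9%) lower, beside 18.1% and 34.1% over all genes. On single autosomes between 12.3% and 21.1% were called higher. The median log2 difference of X-linked genes was 0.75 and that of autosomal genes −0.22 (a gap of 0.97). A change of scaling shifts both medians by about the same amount and so leaves the gap in place by construction, and with scaling on the somatic lists the X-linked median was −0.47. Leaving out 1 library gave gaps of 0.91 to 1.02. The X-linked Nxf3 is among the genes described above, and the X-linked Akap4, of the sperm tail sheath, was lower (−4.62).

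Of 67 Y-linked genes tested, 54 (80.6%) were called lower and 5 higher. Many Y-linked genes have near-identical copies, so their counts are uncertain. The single-copy Kdm5d, Ddx3y and Uty were called higher, by 1.67, 1.44 and 1.01, where Uty was not called without wild-type replicate 2 (0.82) or 3 (0.96), and Eif2s3y, the translation factor gene needed by spermatogonia, was level at 45.6, 46.8 and 44.3 CPM in R111G/+ gonads and 50.2, 43.2 and 41.2 CPM in wild-type testes. With scaling on the somatic lists none of these 4 was called higher, and Eif2s3y was called lower (−1.19).

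**Figure D5:**
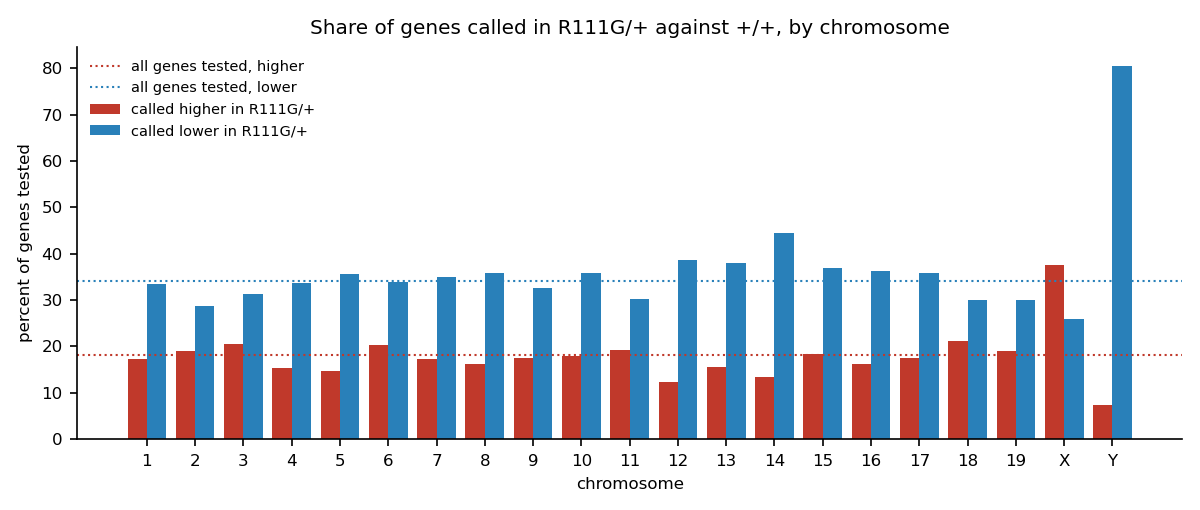
Percent of the genes tested on each chromosome that were called higher (red) or lower (blue) in R111G/+ gonads against wild-type testes, with the shares over all genes (dotted lines, 18.1% and 34.1%). The X chromosome has 37.6% higher and 25.9% lower, and the Y chromosome 7.46% higher and 80.6% lower.

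LincRNA and antisense genes were called lower more often than protein-coding genes. Of 1513 lincRNA genes tested, 1143 (75.5%) were called lower and 86 (5.68%) higher, and of 1001 antisense genes, 706 (70.5%) were called lower. Of 15836 protein-coding genes, 4171 (26.3%) were called lower and 3379 (21.3%) higher.

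The 12 genes of largest rise, of those that averaged 5 CPM or more across the 6 libraries and did not overlap, were Pgr, Pcsk1n, Ildr2, Mansc4, Ppl, Nudc-ps1, Hapln1, Hspb8, Cd74, Adh1, Thrsp and Scara3. Pcsk1n, an inhibitor of prohormone processing, had 55.1, 47.6 and 110 CPM in R111G/+ gonads and 3.63, 7.85 and 2.96 CPM in wild-type testes. Ildr2, a membrane protein, had 24.4, 44.4 and 48.4 CPM in R111G/+ gonads and 2.56, 2.83 and 3.35 CPM in wild-type testes. Ppl, periplakin of cell junctions, had 42.3, 31.1 and 35.3 CPM in R111G/+ gonads and 5.98, 1.54 and 2.96 CPM in wild-type testes.

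Several of these exceeded every other genotype. Pcsk1n, Ppl, Thrsp and Scara3 were called higher than in null gonads, where they averaged 1.43, 3.92, 6.19 and 6.71 CPM, and higher than in heterozygous testes. Adh1, an alcohol dehydrogenase that acts on retinol, was called lower than in null gonads (254 CPM), at 57.2, 23.7 and 33.3 CPM in R111G/+ gonads and 5.23, 4.25 and 3.22 CPM in wild-type testes. These comparisons share the R111G/+ libraries.

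The 12 genes of largest fall by the same rule were Ppp1r2-ps1, Klk1b9, Nudt16l2, Ppp1r2-ps6, Cby3, Acte1, Olfr112, Tex52, Usp46os1, Oxct2b, Itpr3os and Prss23os. Nudt16l2 had 1.62, 1.14 and 1.62 CPM in R111G/+ gonads and 138, 98.2 and 88.8 CPM in wild-type testes. Oxct2b, a ketone body enzyme of germ cells, had 2.97, 2.61 and 4.19 CPM in R111G/+ gonads and 141, 161 and 142 CPM in wild-type testes. All 12 averaged under 1 CPM in null gonads. The pseudogenes and members of the kallikrein, olfactory receptor and Oxct2 families resemble other genes, so their counts are uncertain.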

How the data were processed

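Per the labels and the methods of the study, the authors made strand-specific mRNA libraries, trimmed reads with Trim Galore 0.6.0 and cutadapt 1.18, aligned them to the mouse genome (GRCm38/mm10) with STAR 2.7.2a and counted reads per gene with RSubread. The deposited table holds these raw counts, not normalized, and 0 of its columns were left unmapped. Of its gene identifiers, 55141 (99.5%) matched GENCODE M21.

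From these counts, genes were filtered with filterByExpr and tested with edgeR 4.0.16 (glmQLFit and glmQLFTest, TMM) in R 4.3.3 over all 12 P28 gonad libraries, contrast R111G/+ minus +/+. Standard errors are the log2 fold change over the square root of F. Counts simulated for this contrast (20278 genes) gave back 90.8% of 98 changes of 6-fold and 65.3% of 98 changes of 3-fold. Few genes changed in the simulation, about as many up as down, whereas 52.2% of genes were called in the data. The rates need not hold for the data. Depth was 8921859 to 12792811 counts a library. The members and the 26 gene lists were chosen with earlier results of these data known. Of 408 listed genes, 407 were in the table, and 23 of them had too few counts to test. Named genes are those of the study at this age, the 12 of largest change each way that averaged 5 CPM or more and did not overlap (unnamed models skipped), up to 4 a list by adjusted p and a few more by role. Alternatives were DESeq2 1.42.0, other scalings, filters, sets of samples and a replicate block.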

Additional observations from a re-analysis of the deposited data

How the results depend on the processing

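The direction of the counts rested on the scaling. With library size alone 6190 genes were called higher, with factors from the 4 somatic lists 256 were called higher and 12148 lower, and with no limit on the fold change 5940 were called higher. With factors from the 4 somatic lists the list medians turned to −0.35 (granulosa), −0.68 (differentiating spermatogonia), −0.14 (Leydig), −0.40 (myoid), −0.68 (endothelial), −0.52 (erythroid), −0.26 (junctions), −0.18 (inhibin), −0.66 (retinoid), −0.0551 (niche), −0.32 (hedgehog), −0.17 (Y-linked genes with Xist) and −0.47 (genes the study names). Single log2 differences turned to −0.19 (Eng), −0.13 (Ptch1), −0.14 (Hsd17b3), −1.22 (Dazl), −0.064 (Rxra), −0.0302 (Etv5), −0.18 (Gdnf), −0.27 (Kit), −1.19 (Eif2s3y) and −0.17 (Uty). Of 241 called members of the lists and rule, 21 reversed and 82 lost their call with these factors. Under the other alternatives none reversed, and 0 to 20 lost their call. Leaving out 1 replicate gave 3374 to 4442 genes higher, 6450 to 7412 lower and a mean position of 0.43 to 0.54. DESeq2 called 3249 higher and 7481 lower.

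Residuals of same-numbered libraries of the 2 groups correlated at 0.355, −0.0228 and 0.162, and those of other pairs at −0.301 to 0.226. These few values do not settle whether the numbers of the replicates pair the samples. A fit with the replicate block called 3718 genes higher and 7096 lower, of which 3682 and 7069 were also called without it. Without heterozygous replicate 3, or without replicate 1 of both groups, both chosen after seeing the data, 3841 and 3676 genes were higher and 7473 and 6774 lower. With 3 libraries a group, 3-fold changes in simulated counts were recovered less often than 6-fold ones, so a gene not called may still differ.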
